A study of Danio rerio with 32 samples.

Results

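Gene expression in zebrafish embryos exposed to all-trans retinoic acid was set against that of control embryos. The comparison holds the 8 retinoic acid and 8 control libraries of a series of 32, chosen by the treatment named in the labels, and covers all 15710 genes of the deposited table. RNA of whole embryos was sequenced as polyadenylated RNA. Embryos of both groups were kept in Dutch standard water with 0.01% DMSO, and the exposure lasted 4 h, from 3 to 7 h post fertilisation, which takes in the start of gastrulation. The labels used here give neither the dose of retinoic acid nor the strain, and do not say if the 8 libraries of a group come from separate clutches. The p-values rest on the spread among the libraries, and this spread may be technical. The other libraries of the series were treated with valproic acid, a histone deacetylase inhibitor used against epilepsy, or with folic acid, which the design text gives as the negative control. The library titles carry numbers, and each run of 12 numbers (1 to 12, 13 to 24, 25 to 36 and 37 to 48) holds 2 libraries of every group. What these sets are is not stated, and they were kept as a block in every test.

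Retinoic acid is made from vitamin A and acts as a ligand of nuclear receptors, which bind DNA as dimers of a retinoic acid receptor and a retinoid X receptor and switch on target genes when the ligand is bound. In the gastrula it is made in the mesoderm of the margin and broken down by Cyp26 enzymes in the anterior neural plate, and the resulting unequal supply helps to set the position of hindbrain and spinal cord along the body. Excess retinoic acid is a classical teratogen that reduces anterior brain structures.

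Levels are given as the deposited normalized log2 expression, on which a difference of 1 is a 2-fold difference, and differences are retinoic acid minus control. Each SE is that of the log2 difference. For a single gene, 3 values per group are the lowest, the median and the highest of its 8 libraries. An estimate of relative depth, in reads at the gene that 25% of genes lie below, was 28.9 ± 4.22 in retinoic acid and 31.8 ± 10.4 in control (SD, n = 8 each; two-sided exact permutation test, p = 0.498). The median half-width of the 95% confidence interval of a difference was 0.259 for the upper 75% of genes by mean level and 0.782 for the lower 25%. Small differences were therefore better resolved in abundant genes. Of the 33 cell type markers looked up, 32 were measured, and they covered enveloping layer, yolk syncytial layer, germ cells, axial and paraxial mesoderm, endoderm, and neural and epidermal ectoderm. Of these 32 the marker genes SOX3 and TP63 were called, and the other 30 were not, where 1.18% of all genes were called. Retinoic acid replicate 3 stood apart, with 2755 genes more than 2-fold from its group, against 1062 to 1632 in the other 15 libraries, and with 77 ribosomal protein genes at a median of 1.11 above its group. The median deviation of the 25 Hox and Cdx genes from the mean of the other 7 libraries of the group ran from -1.75 in control replicate 1 to 1.69 in control replicate 3, and in the retinoic acid libraries from -1.61 to 0.72. Counts are also given without retinoic acid replicate 3 and without control replicate 1. The first principal component of the 16 libraries, with 19.3% of the variance, followed the title-number sets (68.3% of it lay between sets). The fourth, with 7.5%, followed treatment (70.5% lay between the groups).

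More genes rose than fell in retinoic acid. Of 15710 genes tested, 186 were called at a Benjamini-Hochberg adjusted p under 0.05 in limma, which is 1.18% of them. These were 152 rises (0.968%) and 34 falls (0.216%). A rise of at least 2-fold was found for 79 genes (0.503%), a fall of at least 2-fold for 4 genes (0.0255%). The median rise was 2.03-fold and the median fall 1.43-fold. The rising and falling genes differed in abundance. The median control level was 7.09 for the rises and 10.48 for the falls, beside a median level over all genes of 7.84. In the upper 75% of genes by mean level, 45 rises and 1 fall were at least 2-fold. Outside the Hox and Cdx genes and the genes that handle retinoids, 134 genes rose and 33 fell, 62 and 4 of them at least 2-fold. For 60 of the 152 rises the 8 retinoic acid libraries all lay above the 8 controls (0.382% of all genes did so), and for 6 of the 34 falls they all lay below (0.0573% of all genes did so). Without retinoic acid replicate 3 the calls were 195 rises and 53 falls, with 180 of the 186 genes among them. Without control replicate 1 they were 140 rises and 39 falls, with 160 of the 186. RNA came from whole embryos, so fewer cells of a type and less RNA per cell cannot be told apart in any of these values.

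**Figure D1:**
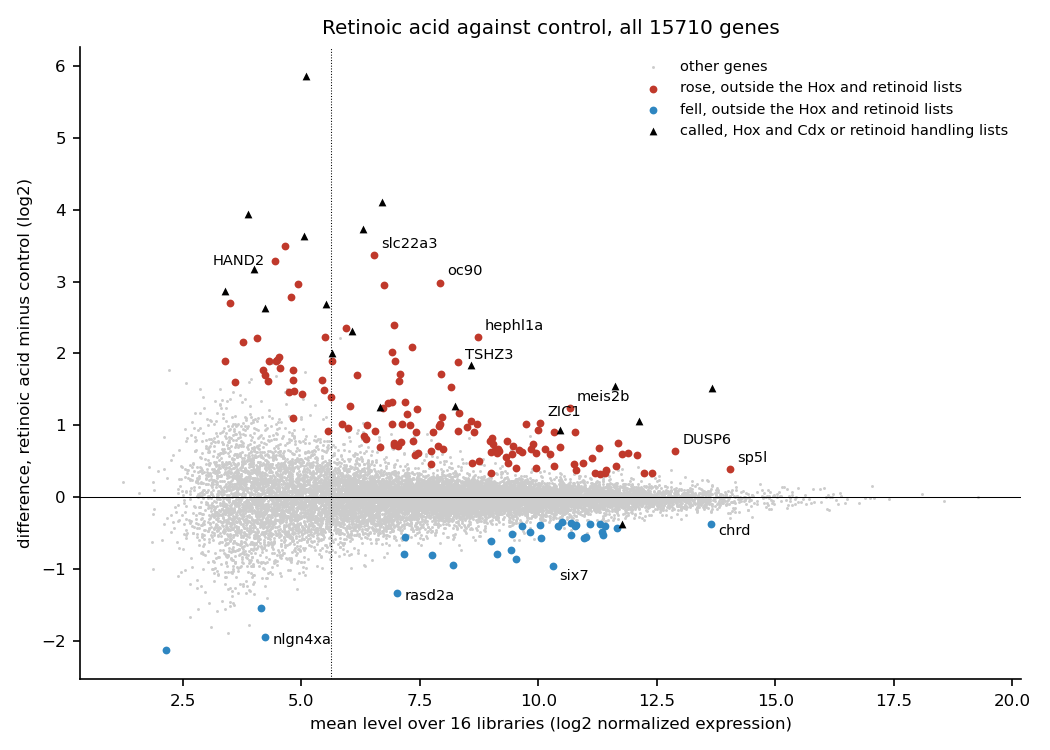
Difference between retinoic acid and control (log2, vertical axis) against the mean level over the 16 libraries (log2 normalized expression, horizontal axis) for all 15710 genes. Red and blue points are the 134 rises and 33 falls outside the Hox, Cdx and retinoid handling lists, black triangles are called genes of those lists, grey points are the other genes, and the dotted line is the lower quartile of the mean at 5.63. Rises reach from low to high levels, and the falls lie mostly among abundant genes.

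Genes that handle retinoic acid itself serve as a check of the treatment. CYP26A1, the enzyme that degrades retinoic acid, lay between 14.37 and 14.51 in retinoic acid and between 12.67 and 13.03 in control. It rose 2.87-fold (SE 0.06, limma adjusted p = 1.71e-11). Among the 29 measured retinoid handling genes 5 rose (17.2%, against 0.968% of all genes) and 1 fell (3.45%, against 0.216%). CRABP2 (ENSDARG00000073978), a carrier protein that brings retinoic acid to its receptors or enzymes, was at 5.26, 7.3 and 8.76 (lowest, median and highest) in retinoic acid and 2.16, 4.28 and 7.64 in control. It rose by 2.31 (SE 0.41, limma adjusted p = 0.00392), with overlapping groups overall but higher values in retinoic acid within each of the 4 sets. The other gene of that name, ENSDARG00000030449, was at 14.26 ± 0.3 in retinoic acid and 14.04 ± 0.063 in control and did not pass (0.22, adjusted p = 0.623). Neither did the receptor genes RARG (0.26, adjusted p = 0.777) and rarab (0.15, adjusted p = 0.708), whereas the receptor gene raraa was called (0.94, SE 0.073, adjusted p = 2.7e-07). CYP26C1, a second degrading enzyme, was at 0.79 (adjusted p = 0.215), and at 0.98 without retinoic acid replicate 3 (adjusted p = 0.0178). Without control replicate 1 it was at 0.63 (adjusted p = 0.379). The CRABP2 gene ENSDARG00000030449 also passed only without retinoic acid replicate 3, at 0.32 (adjusted p = 0.018), and was at 0.22 without control replicate 1 (adjusted p = 0.71). Of the Hox and Cdx genes 13 of 25 rose (52%) and none fell, with a median difference of 1.37. Over all genes the median difference was -0.0068.

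Outside the Hox, Cdx and retinoid lists the largest rise in the upper 75% of genes was that of slc22a3, which encodes a transporter of organic cations. Its level was 7.9, 8.18 and 8.77 (lowest, median and highest) in retinoic acid and 3.67, 5.06 and 5.75 in control. All 8 retinoic acid libraries lay above all 8 controls, by 10.3-fold on average (log2 difference 3.37, SE 0.24, limma adjusted p = 6.4e-08). The otic matrix protein gene oc90 was at 9.19, 9.34 and 9.91 in retinoic acid and 5.72, 6.31 and 7.56 in control, also without overlap. It rose 7.91-fold (SE 0.19, adjusted p = 1.36e-08). The adaptor gene skap1, known in mammals from T cell signalling, was at 7.25, 8.53 and 8.79 in retinoic acid and 3.27, 5.82 and 6.31 in control. Again no control library reached the lowest retinoic acid library, and skap1 rose 7.75-fold (SE 0.24, adjusted p = 3.69e-07). The ferroxidase-like gene hephl1a was at 9.27, 9.86 and 10.23 in retinoic acid and 7.19, 7.54 and 8.11 in control, a rise of 4.68-fold (SE 0.13, adjusted p = 9.17e-09) with non-overlapping groups. HES6 (ENSDARG00000007097), a helix-loop-helix factor of the Hairy/Enhancer of split family, was at 7.54, 8.25 and 8.51 in retinoic acid and 5.1, 5.72 and 6.68 in control. It rose 5.24-fold (SE 0.19, adjusted p = 3.69e-07), and these groups too did not overlap. TSHZ3, a teashirt zinc finger gene, also had groups that did not overlap. It was at 8.76, 9.27 and 9.62 in retinoic acid and 6.8, 7.4 and 7.62 in control, and rose 3.67-fold (SE 0.12, adjusted p = 1.36e-08).

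Further large rises with no overlap between the groups were those of grin3ba, a subunit of glutamate receptors, by 2.1 (SE 0.23, adjusted p = 2.13e-05), LDLRAD4, a membrane inhibitor of transforming growth factor beta signalling, by 1.9 (SE 0.27, adjusted p = 0.000458), and the glucuronosyltransferase gene ugt5g1 by 1.89 (SE 0.18, adjusted p = 4.39e-06). The cyclin gene ccndx rose by 1.72 (SE 0.23, adjusted p = 0.00024). Its groups overlapped, at 6.09, 8.17 and 8.87 in retinoic acid and 3.67, 6.75 and 7.56 in control, and retinoic acid was higher within each set. Rises between 2-fold and 3-fold included FGD1, an activator of the GTPase Cdc42 (1.32), the octamer-binding factor gene POU2F2 (1.24), the epithelial factor gene GRHL2 (1.23), the secreted factor gene NDNF (1.17), AHCYL1 (1.16), the collagen gene COL14A1 (1.12) and LDB2 (ENSDARG00000034896, 1.06), which encodes a partner of LIM-homeodomain factors. Adjusted p for these 7 ran from 2.11e-05 for NDNF to 0.00506 for POU2F2.

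Among genes of the lowest 25% by mean level, outside the Hox, Cdx and retinoid lists and leaving out genes with clone names, the largest rise belonged to HAND2, a helix-loop-helix factor of heart, pharyngeal and fin bud mesenchyme. HAND2 was at 2.98, 6.4 and 7.98 (lowest, median and highest) in retinoic acid and 0, 2.04 and 6.08 in control, with 2 control libraries at their lowest value. The groups overlapped, but within every set both retinoic acid libraries lay above both controls, with differences of 3.78, 1.92, 2.8 and 4.63 in the 4 sets in order of title number. The fitted rise was 3.28 (SE 0.48, adjusted p = 0.000547). At such levels the size depends on how reads near 0 were scaled, so the levels describe the gene better than the fold. The next was ripply3, a co-repressor of pharyngeal development, at 5.53, 6.27 and 7.62 in retinoic acid and 0.59, 3.51 and 5.61 in control (rise 2.97, SE 0.41, adjusted p = 0.000363). SEPTIN3, a septin known from neurons, was at 5.53, 6.12 and 7.13 in retinoic acid and 2.3, 3.49 and 4.38 in control, without overlap (rise 2.78, SE 0.28, adjusted p = 5.21e-06). LDLRAD2 also had no overlap, at 4.2, 5.001 and 5.38 in retinoic acid and 0.2, 2.03 and 3.63 in control (2.7, SE 0.48, adjusted p = 0.00385). Others called at low levels were the zinc finger homeobox gene ZFHX3 (2.22, SE 0.35, adjusted p = 0.00102), STARD13 (ENSDARG00000079542), which encodes a START domain protein (2.21, SE 0.42, adjusted p = 0.00695), and zbtb16b, a BTB zinc finger gene (1.91, SE 0.34, adjusted p = 0.00425). MARVELD1 (1.95, SE 0.44, adjusted p = 0.0328) was lost in 11 of the 16 fits that left out 1 library, with adjusted p up to 0.0989.

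**Figure D2:**
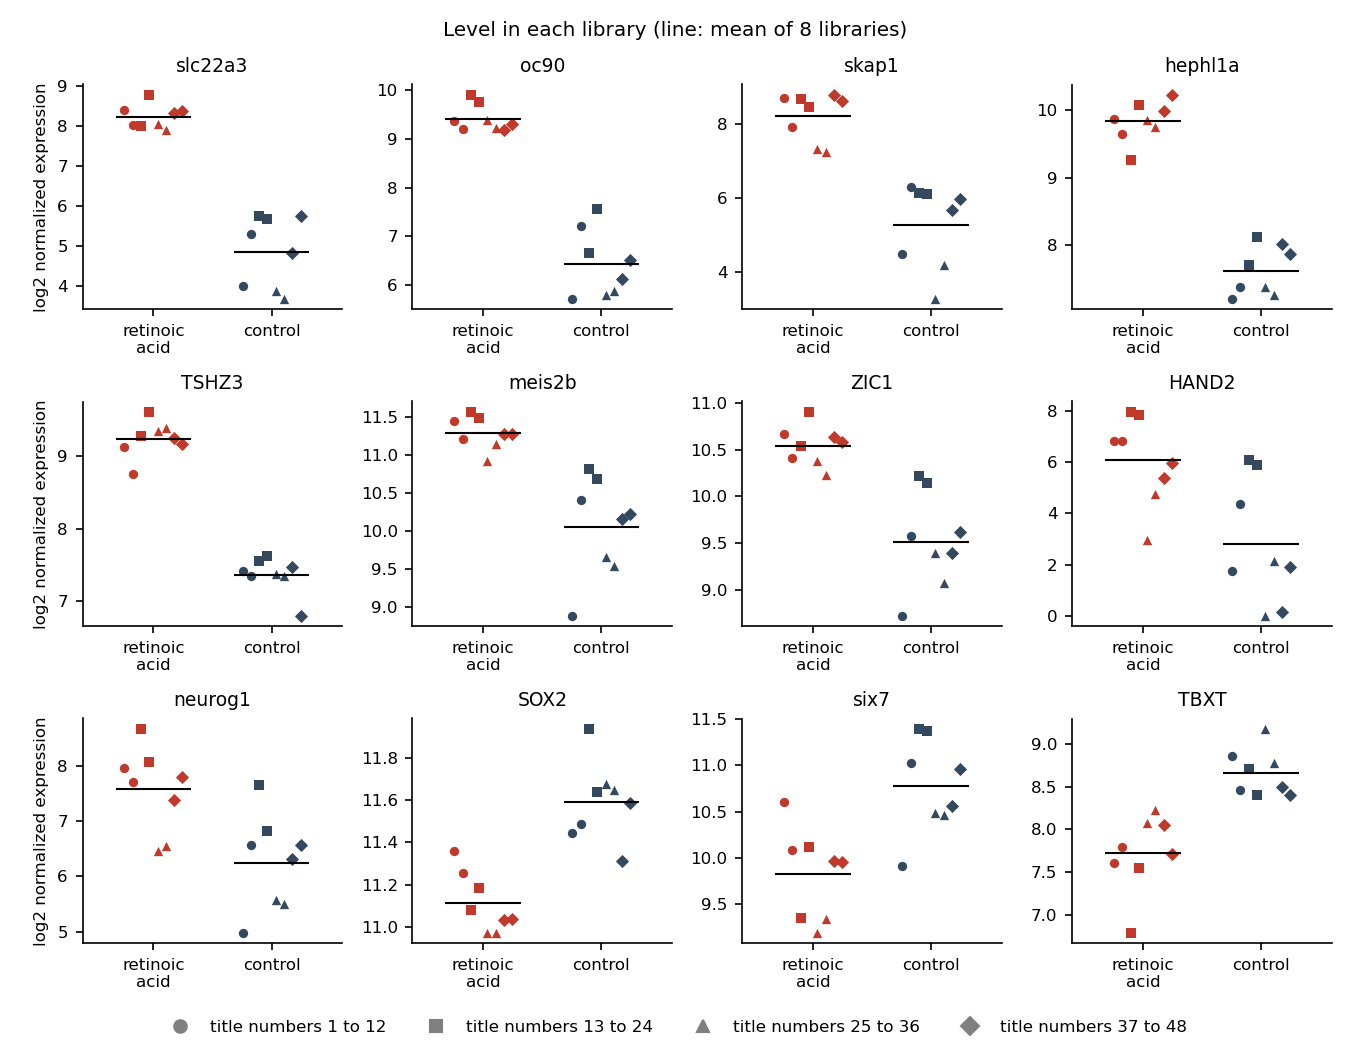
Level (log2 normalized expression) of 12 genes in each of the 8 retinoic acid libraries (red) and 8 control libraries (dark blue). Each point is a library, its shape gives the title-number set, and the line is the mean of 8. The groups do not overlap for slc22a3, oc90, skap1, hephl1a, TSHZ3, meis2b, ZIC1 and TBXT, and HAND2, neurog1, SOX2 and six7 overlap.

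Rises were frequent among the listed hindbrain and spinal cord patterning genes. The gene lists, here and below, were chosen with earlier results of these data known, so their shares are descriptions and not tests. Each list share is to be read beside the 0.968% of all genes that rose and the 0.216% that fell. Of 30 measured, 11 rose (36.7%, against 0.968% of all genes), 1 fell (PAX6, given below) and 18 did not pass. The median difference was 0.29. The Meis genes encode homeodomain cofactors that bind DNA with Hox proteins. Among them meis2b was at 10.92, 11.27 and 11.57 (lowest, median and highest) in retinoic acid and 8.88, 10.19 and 10.81 in control, without overlap. It rose 2.37-fold (SE 0.16, limma adjusted p = 0.000172). MEIS1 was at 10.35, 10.9 and 11.03 in retinoic acid and 9.35, 9.98 and 10.41 in control, which overlap slightly, and rose 1.88-fold (SE 0.094, adjusted p = 8.62e-06). MEIS2 (1.9, SE 0.31, adjusted p = 0.00149) also rose, and meis3 (0.75, SE 0.16, adjusted p = 0.0244) was lost in 6 of the 16 fits without 1 library, with adjusted p up to 0.0692. The Pbx genes, which encode the other cofactor family of Hox proteins, did not pass, with pbx1b at -0.44 (adjusted p = 0.669), pbx2 at 0.084 (adjusted p = 0.837) and pbx4 at -0.088 (adjusted p = 0.911). The related zinc finger co-repressors ZNF503, at 11.9, 12.05 and 12.2 in retinoic acid and 10.99, 11.31 and 11.58 in control, and ZNF703, at 12.17, 12.38 and 12.61 in retinoic acid and 11.32, 11.82 and 12.03 in control, had no overlap between the groups. They rose by 0.75 (SE 0.074, adjusted p = 4.47e-06) and by 0.6 (SE 0.082, adjusted p = 0.000322).

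The ventral neural tube factors NKX6-1 (0.91, SE 0.16, adjusted p = 0.00394) and OLIG2 (1.02, SE 0.25, adjusted p = 0.0498) were also called. OLIG2 was lost in 11 of the 16 fits without 1 library (adjusted p up to 0.144). Genes of the midbrain-hindbrain border that did not pass include GBX2 (0.57, adjusted p = 0.846) and PAX2 (0.86, adjusted p = 0.732). Their 95% confidence intervals, -0.52 to 1.66 and -0.16 to 1.87 in that order, do not exclude a 2-fold difference. The related factor PAX8, which marks otic and pronephric precursors as well as hindbrain, was at 7.79, 9.003 and 9.44 in retinoic acid and 5.86, 7.01 and 8.43 in control. Its groups overlapped, retinoic acid was higher within each set, and it rose 3.3-fold (SE 0.24, adjusted p = 0.000364).

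Anterior neural genes moved in both directions. Of the 31 forebrain and midbrain genes measured, 8 fell (25.8%, against 0.216% of all genes), 4 rose (12.9%) and 19 did not pass, and the median difference was -0.16. FZD8 (ENSDARG00000045444), a Wnt receptor, was at 11.04, 11.12 and 11.2 in retinoic acid and 11.3, 11.49 and 11.72 in control. These do not overlap, and the fall was 1.29-fold (SE 0.06, limma adjusted p = 0.00159). The head organizer and forebrain factor otx2a was at 11.02, 11.23 and 11.33 in retinoic acid and 11.48, 11.61 and 11.82 in control, again without overlap, and fell 1.31-fold (SE 0.066, adjusted p = 0.00214). The related genes OTX1 and OTX2 differed in call, at -0.43 (SE 0.086, adjusted p = 0.0125) and -0.084 (SE 0.1, adjusted p = 0.879). The eye field gene six7 was at 9.19, 9.96 and 10.6 in retinoic acid and 9.91, 10.76 and 11.4 in control. It fell 1.93-fold (SE 0.19, adjusted p = 0.0125), with overlapping groups. The forebrain LIM-homeobox gene lhx5 fell by 0.57 (SE 0.094, adjusted p = 0.00209).

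The calls of the remaining anterior falls lay closer to the threshold and were often lost when 1 library was left out. FEZF2, a forebrain zinc finger gene, was at -0.85 (SE 0.19, adjusted p = 0.032), PAX6 (ENSDARG00000045936), a gene of eye, forebrain and hindbrain, at -0.79 (SE 0.18, adjusted p = 0.0361), and SP8, a zinc finger gene of the forebrain rim, at -0.73 (SE 0.16, adjusted p = 0.0255). They were lost in 10, 11 and 10 of the 16 fits without 1 library, in that order, with adjusted p up to 0.0952, 0.102 and 0.0766. In the first set, numbered 1 to 12, the difference was near 0 or positive for these genes, at -0.0098 for FEZF2, -0.031 for PAX6 and 0.13 for SP8. In the other 3 sets FEZF2 lay between -1.41 and -0.74, PAX6 between -1.38 and -0.62 and SP8 between -1.16 and -0.82. The same was seen for six7, at -0.12 in the first set and -1.65 to -0.8 in the others. That set holds control replicate 1. Without that library the falls were -1.06 for FEZF2 (adjusted p = 4.06e-05), -0.93 for PAX6 (adjusted p = 0.00238), -0.87 for SP8 (adjusted p = 0.000569) and -1.12 for six7 (adjusted p = 0.000161), and 10 anterior genes fell and 3 rose. Without retinoic acid replicate 3 instead, 8 fell and 4 rose. Control replicate 1 did not stand apart in the number of genes more than 2-fold from its group (1417). Why the first set differed was not tested.

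The 4 anterior list members that rose were ZIC1, WNT8B, IRX1 and IRX3. ZIC1, a zinc finger gene of the dorsal neural tube and neural plate border, was at 10.23, 10.56 and 10.91 in retinoic acid and 8.72, 9.48 and 10.22 in control, without overlap (1.03, SE 0.13, adjusted p = 9.02e-05). WNT8B, a Wnt ligand of the midbrain, hindbrain and dorsal forebrain, was at 7.42, 8.62 and 8.9 in retinoic acid and 6.38, 7.46 and 8.42 in control, and retinoic acid was higher within each set (0.99, SE 0.2, adjusted p = 0.0121). IRX1 (ENSDARG00000056594) and IRX3 (ENSDARG00000031138) are Iroquois homeobox genes of midbrain and hindbrain. They were called at 0.38 (SE 0.081, adjusted p = 0.0195) and 1.9 (SE 0.44, adjusted p = 0.0361), and the fits without 1 library lost them in 5 and 12 of 16 cases, with adjusted p up to 0.0596 and 0.0977. Their other copies did not pass, at -0.29 for IRX1 (ENSDARG00000101831, adjusted p = 0.857) and -0.027 for IRX3 (ENSDARG00000101076, adjusted p = 0.977).

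**Figure D3:**
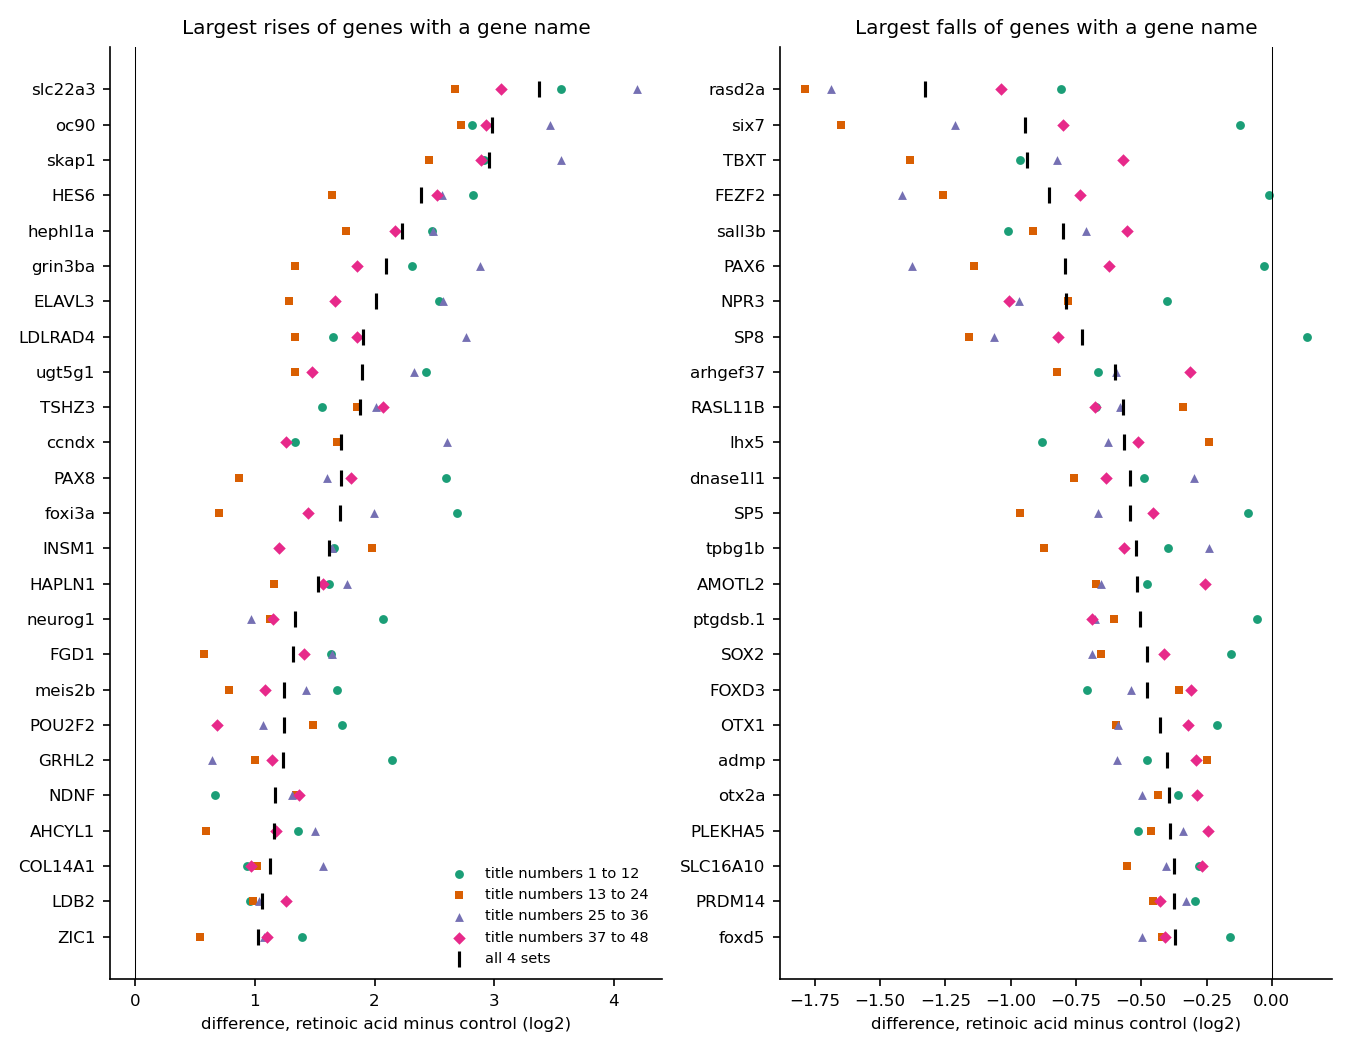
Difference between retinoic acid and control (log2, horizontal axis) within each of the 4 title-number sets (coloured shapes, 2 libraries against 2) and over all sets (black bar), for the 25 largest called rises and 25 largest called falls, clone-named genes left out, outside the Hox, Cdx and retinoid handling lists in the upper 75% of genes by mean level. Every set lies above 0 for each of the 25 rises, and SP8 in the set numbered 1 to 12 is the 1 value above 0 among the falls.

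Among genes of neurogenesis the rises included neuronal, proneural and progenitor genes, and SOX2 and PRDM14 fell. Of 42 measured, 5 rose (11.9%), 2 fell (4.76%) and 35 did not pass, and the median difference was 0.099. ELAVL3, an RNA-binding protein of young neurons, was at 7.22, 7.93 and 8.66 in retinoic acid and 3.95, 6.13 and 6.95 in control, without overlap (2.02, SE 0.24, adjusted p = 6.22e-05). INSM1, which codes for a zinc finger protein of differentiating neurons, was at 7.31, 7.79 and 8.43 in retinoic acid and 5.62, 6.3 and 6.71 in control, and its groups also did not overlap (1.62, SE 0.16, adjusted p = 4.39e-06). The proneural gene neurog1 was at 6.46, 7.76 and 8.68 in retinoic acid and 4.98, 6.44 and 7.67 in control. It overlapped between groups but was higher in retinoic acid within each set, by 2.07, 1.13, 0.97 and 1.16 in order (1.33, SE 0.22, adjusted p = 0.00214). Among the Sox genes of the neural plate, SOX3 rose by 0.33 (SE 0.061, adjusted p = 0.00517) and SOX2 fell by 0.48 (SE 0.08, adjusted p = 0.00223). SOX2 was at 10.97, 11.06 and 11.36 in retinoic acid and 11.31, 11.61 and 11.94 in control, and both retinoic acid libraries lay below both controls within each set. The early gene sox19b was called at 0.33 (SE 0.073, adjusted p = 0.0258) and lost in 10 of the 16 fits without 1 library (adjusted p up to 0.0782). PRDM14, a zinc finger gene of pluripotent cells, germ cells and early neurons, fell by 0.38 (SE 0.074, adjusted p = 0.00962).

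Of 33 measured Notch pathway genes, 3 rose (9.09%) and none fell, with a median difference of -0.043. Besides HES6 these were her8a, a Hairy-related repressor of the neural plate, at 11.28, 11.6 and 11.93 in retinoic acid and 11.06, 11.21 and 11.52 in control (0.38, SE 0.059, adjusted p = 0.00099), and dlb, the Notch ligand gene deltaB, at 7.02, 7.45 and 7.87 in retinoic acid and 6.07, 6.86 and 7.004 in control (0.78, SE 0.17, adjusted p = 0.0244). The groups did not overlap for dlb, though its call was lost in 6 of the 16 fits without 1 library (adjusted p up to 0.0776). The Notch ligand genes dlc (-0.049, adjusted p = 0.902) and DLD (0.01, adjusted p = 0.985) did not pass. Their 95% confidence intervals, -0.21 to 0.11 and -0.16 to 0.18, lie well within 2-fold. The other gene named HES6, ENSDARG00000019335, did not pass either (0.081, adjusted p = 0.87).

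Neural border, crest, placode and otic genes gave 6 rises (13.6%) and 1 fall (2.27%) among 44 measured, with a median difference of 0.18. The rises were oc90, ZIC1, PAX8, ZNF703 and IRX1, given above, and foxi3a, a forkhead gene of epidermal ionocyte precursors. Its level was 6.09, 7.15 and 7.75 in retinoic acid and 3.66, 5.75 and 6.47 in control. Retinoic acid was higher within each set although the groups overlapped (1.71, SE 0.3, adjusted p = 0.00385). The fall was FOXD3, a forkhead gene of neural crest precursors and of the early blastula and axial mesoderm, by 0.48 (SE 0.11, adjusted p = 0.0332), lost in 12 of the 16 fits without 1 library (adjusted p up to 0.1). Without retinoic acid replicate 3 the list gave 11 rises. The 5 added were PAX3 (ENSDARG00000010192, 1.07, adjusted p = 0.0132), SOX9 (ENSDARG00000003293, 0.86, adjusted p = 0.021), TFAP2A (0.33, adjusted p = 0.00186), TFAP2C (0.31, adjusted p = 0.00479) and msx3 (0.34, adjusted p = 0.0468), transcription factors of the neural plate border and crest. Without control replicate 1 the list gave 6 rises and 0 falls. None of these 5 genes passed in that limma fit, with adjusted p from 0.142 for msx3 to 0.625 for TFAP2C. In the epidermal ectoderm TP63, the p63 gene of basal epidermis, was at 9.67, 10.57 and 10.82 in retinoic acid and 8.44, 9.68 and 10.26 in control. It rose 1.91-fold (SE 0.16, adjusted p = 0.00325) with overlapping groups. It was also the 1 rise among 38 enveloping layer and epidermis genes (median difference 0.023), and the other epidermal markers were at 0.33 for foxi1 (adjusted p = 0.0619), 0.12 for GATA2 (adjusted p = 0.721) and 0.23 for TFAP2C (adjusted p = 0.495).

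Most mesoderm genes did not pass. Of 39 axial midline genes 4 fell (10.3%, against 0.216% of all genes) and 1 rose (2.56%, against 0.968%), with a median difference of -0.11. TBXT (ENSDARG00000039806), a brachyury gene of notochord and tailbud, was at 6.79, 7.75 and 8.22 in retinoic acid and 8.4, 8.6 and 9.18 in control. No retinoic acid library reached the lowest control, and TBXT fell 1.91-fold (SE 0.14, limma adjusted p = 0.000674). The second brachyury gene tbxta, at 12.65 ± 0.18 in retinoic acid and 12.78 ± 0.22 in control, did not pass (-0.13, 95% confidence interval -0.3 to 0.046). The dorsal organizer genes chrd, a secreted inhibitor of bone morphogenetic proteins, and admp, a bone morphogenetic protein of the organizer, were called at -0.37 (SE 0.084, adjusted p = 0.0357) and -0.4 (SE 0.086, adjusted p = 0.0222), and were lost in 11 and 10 of the 16 fits without 1 library (adjusted p up to 0.109 and 0.0706). Other notochord genes did not pass, with noto at -0.13 (adjusted p = 0.834) and SHH (ENSDARG00000038867) at 0.29 (adjusted p = 0.77).

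Among 30 measured ventral, lateral, cardiac and pronephric mesoderm genes, 3 rose (10%), among them HAND2 and PAX8, and none fell, with a median difference of 0.026. The ventral genes vox (-0.024, adjusted p = 0.972), ved (0.094, adjusted p = 0.881) and eve1 (0.056, adjusted p = 0.93) did not pass. Of 44 paraxial mesoderm and tailbud genes 4 rose (9.09%) and 3 fell (6.82%), with a median difference of 0.052. These hold CYP26A1, HES6, FGF8 and sp5l among the rises and TBXT, ALDH1A2 and SP5 among the falls. Of 19 endoderm genes 1 rose (5.26%, against 0.968% of all genes) and the others did not pass (median difference -0.093). Of 41 Nodal and mesendoderm genes FGF8 rose (2.44%) and the others did not pass (median difference -0.073).

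Most signalling genes did not pass in any pathway. The shares called in the FGF, Wnt and bone morphogenetic protein lists were still above those of all genes (0.968% rose and 0.216% fell). Of 43 FGF and MAPK genes, 2 rose (4.65%) and 1 fell (2.33%), with a median difference of -0.049. DUSP6, a phosphatase that limits ERK signalling, was at 13.04, 13.2 and 13.45 in retinoic acid and 12.41, 12.56 and 12.69 in control, without overlap (0.65, SE 0.064, limma adjusted p = 5.14e-06). FGF8, the fibroblast growth factor of the margin and neural plate, was at 10.95, 11.21 and 11.33 in retinoic acid and 10.34, 10.74 and 10.96 in control, with overlap (0.48, SE 0.091, adjusted p = 0.00747). RASL11B, a small GTPase of the Ras family, fell by 0.57 (SE 0.09, adjusted p = 0.00124). FGF receptors were called after retinoic acid replicate 3 was left out, among them fgfr4 at 0.29 (adjusted p = 0.000939) and FGFR2 at 0.3 (adjusted p = 0.0244). Neither passed in limma without control replicate 1 (adjusted p = 0.173 for fgfr4 and 0.769 for FGFR2), where the list gave 2 rises and 1 fall.

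Of 54 Wnt genes, 3 rose (5.56%) and 2 fell (3.70%), with a median difference of -0.033. The receptor gene FZD4 was at 9.997, 10.24 and 10.68 in retinoic acid and 8.8, 9.29 and 9.45 in control. It rose 2.04-fold without overlap (SE 0.099, adjusted p = 4.39e-06), while the receptor gene FZD8 fell, as given above. The Sp1-family genes sp5l and SP5, targets of Wnt signalling in the margin, moved apart. The gene sp5l was at 14.15, 14.19 and 14.51 in retinoic acid and 13.66, 13.88 and 14.06 in control and rose by 0.39 without overlap (SE 0.057, adjusted p = 0.000509). SP5 was at -0.54 (SE 0.12, adjusted p = 0.0225), lost in 8 of the 16 fits without 1 library (adjusted p up to 0.0674). Of 42 genes of bone morphogenetic protein signalling, 2 rose (4.76%) and 2 fell (4.76%). The gene smad9, a transducer of the pathway, was called at 0.64 (SE 0.13, adjusted p = 0.0192, lost in 6 of 16, adjusted p up to 0.0605). TP63, chrd and admp are given above. No Hedgehog gene passed among 18 measured in limma (1 at an unadjusted p under 0.05, beside 8.01% of all genes, median difference -0.011), and all 18 had 95% confidence intervals within 2-fold either way.

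Orphan nuclear receptors and their partners gave 3 rises among 31 measured (9.68%), no fall and a median difference of 0.041. TSHZ3 is given above. NR2F6 (ENSDARG00000003165) and NR2F1 encode COUP family receptors, which can compete with retinoic acid receptors for DNA sites. NR2F6 was at 9.7, 9.95 and 10.12 in retinoic acid and 8.91, 9.33 and 9.51 in control, without overlap (0.66, SE 0.088, adjusted p = 0.00021). NR2F1 was at 5.22, 6.54 and 7.37 in retinoic acid and 4.29, 5.31 and 6.27 in control and was called at 1.02 (SE 0.21, adjusted p = 0.0157), with adjusted p = 0.0525 in the 1 fit without a library that lost it. The family members nr2f5 (0.65, adjusted p = 0.468) and NR2F2 (0.42, adjusted p = 0.828) did not pass. The co-repressor gene NCOR1, whose product silences targets of unliganded receptors, did not pass either (0.067, adjusted p = 0.908).

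A few genes of metabolism, transport and matrix were called. Of 25 measured xenobiotic metabolism and transport genes 3 rose (12%) and none fell, with a median difference of 0.051. The glucuronosyltransferase gene ugt5g1 was at 7.26, 7.93 and 8.44 in retinoic acid and 4.98, 6.14 and 7.12 in control. Its groups did not overlap. tiparp, an ADP-ribosyltransferase known as a target of the aryl hydrocarbon receptor, was at 12.01, 12.23 and 12.31 in retinoic acid and 11.45, 11.57 and 11.72 in control, without overlap (0.62, SE 0.059, limma adjusted p = 3.87e-06). The cytochrome P450 gene cyp2aa2 rose by 0.47 (SE 0.085, adjusted p = 0.00436). Of 38 sterol, lipid and carrier genes, insig1, which holds the sterol sensing complex in the endoplasmic reticulum, rose by 0.93 (SE 0.13, adjusted p = 0.000372) and the lipoprotein receptor gene ldlrb by 0.6 (SE 0.12, adjusted p = 0.0099), with a median difference of -0.081 over the list. Of 42 matrix genes, HAPLN1, a link protein of hyaluronan matrix, was at 8.34, 8.97 and 9.33 in retinoic acid and 6.51, 7.52 and 8.1 in control, without overlap (1.53, SE 0.17, adjusted p = 1.85e-05). ADAMTS15, a matrix protease, was called at 0.82 (SE 0.18, adjusted p = 0.031) and lost in 9 of the 16 fits without 1 library (adjusted p up to 0.0862), and the median difference of the list was -0.12. Among 54 Eph, ephrin, cadherin and guidance genes, LRRN1, a leucine-rich repeat membrane protein, rose by 0.83 (SE 0.15, adjusted p = 0.00439) and the protocadherin gene PCDH18 (ENSDARG00000089805) by 0.79 (SE 0.095, adjusted p = 6.22e-05), with a median difference of -0.092. In the yolk syncytial list of 28 genes 2 rose, among them CAVIN2 (ENSDARG00000071196, 0.44, SE 0.09, adjusted p = 0.0151), with a median difference of 0.019. The shares that rose were 5.26% for sterol genes, 4.76% for matrix genes, 3.7% for guidance genes and 7.14% for yolk syncytial genes. No member of these lists fell, and over all genes 0.968% rose and 0.216% fell.

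Other called genes, outside the naming rule and picked after their values had been seen, have varied roles. The gene lratb.1, a lecithin retinol acyltransferase of the family that stores retinol as ester, was called at 0.35 (SE 0.08, adjusted p = 0.0374; lost in 14 of 16 fits, adjusted p up to 0.103), and the aldehyde oxidase gene aox5 rose by 1.76 (SE 0.34, adjusted p = 0.00747). NAMPT, an enzyme of NAD synthesis, rose by 1.77 (SE 0.31, adjusted p = 0.00385). The mean levels of aox5 (4.2) and NAMPT (4.83) lay below the lower quartile of 5.63, so the sizes of their rises depend more on the scaling near 0. The bile salt transporter gene abcb11a rose by 0.98 (SE 0.16, adjusted p = 0.00208). APOB, an apolipoprotein, rose by 0.64 (SE 0.13, adjusted p = 0.012) and HYAL2 (ENSDARG00000062997), a hyaluronidase, by 0.6 (SE 0.095, adjusted p = 0.00113). ACKR3, a scavenging chemokine receptor, was at 10.78, 11.02 and 11.16 in retinoic acid and 10.26, 10.53 and 10.7 in control, without overlap (0.46, SE 0.077, adjusted p = 0.00228). DACT1, a regulator of Wnt signalling, rose by 0.7 (SE 0.1, adjusted p = 0.000547), olig4, a helix-loop-helix gene related to OLIG2, by 1.02 (SE 0.13, adjusted p = 0.000143), and rgmd, of the repulsive guidance molecule family, by 0.67 (SE 0.1, adjusted p = 0.00099).

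Stress, cell death, maternal and germ cell genes gave no calls, and 1.18% of all genes were called. At that share, lists of this size would hold few calls or none. No gene passed in limma among 33 measured genes of the p53 response and apoptosis, 48 of heat shock, unfolded protein and oxidative stress, 31 maternal transcripts and 18 germ cell genes, with 0, 3, 0 and 0 at an unadjusted p under 0.05, which 8.01% of all genes had. Their median differences were -0.016, -0.020, -0.0014 and -0.040, and 32, 46, 25 and 18 of them had 95% confidence intervals within 2-fold either way. Of 62 cell cycle genes ccndx rose (1.61%, against 0.968% of all genes) and the other 61 did not pass, with a median difference of 0.014. Of 44 early zygotic and pluripotency genes, 5 fell (11.4%), namely chrd, FOXD3, foxd5, sall3b and SOX2, and 2 rose, namely sox19b and SOX3 (4.55%), with a median difference of -0.096. The repressor gene foxd5 of the early neural plate was called at -0.37 (SE 0.085, adjusted p = 0.0361; lost in 10 of 16 fits, adjusted p up to 0.106).

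**Figure D4:**
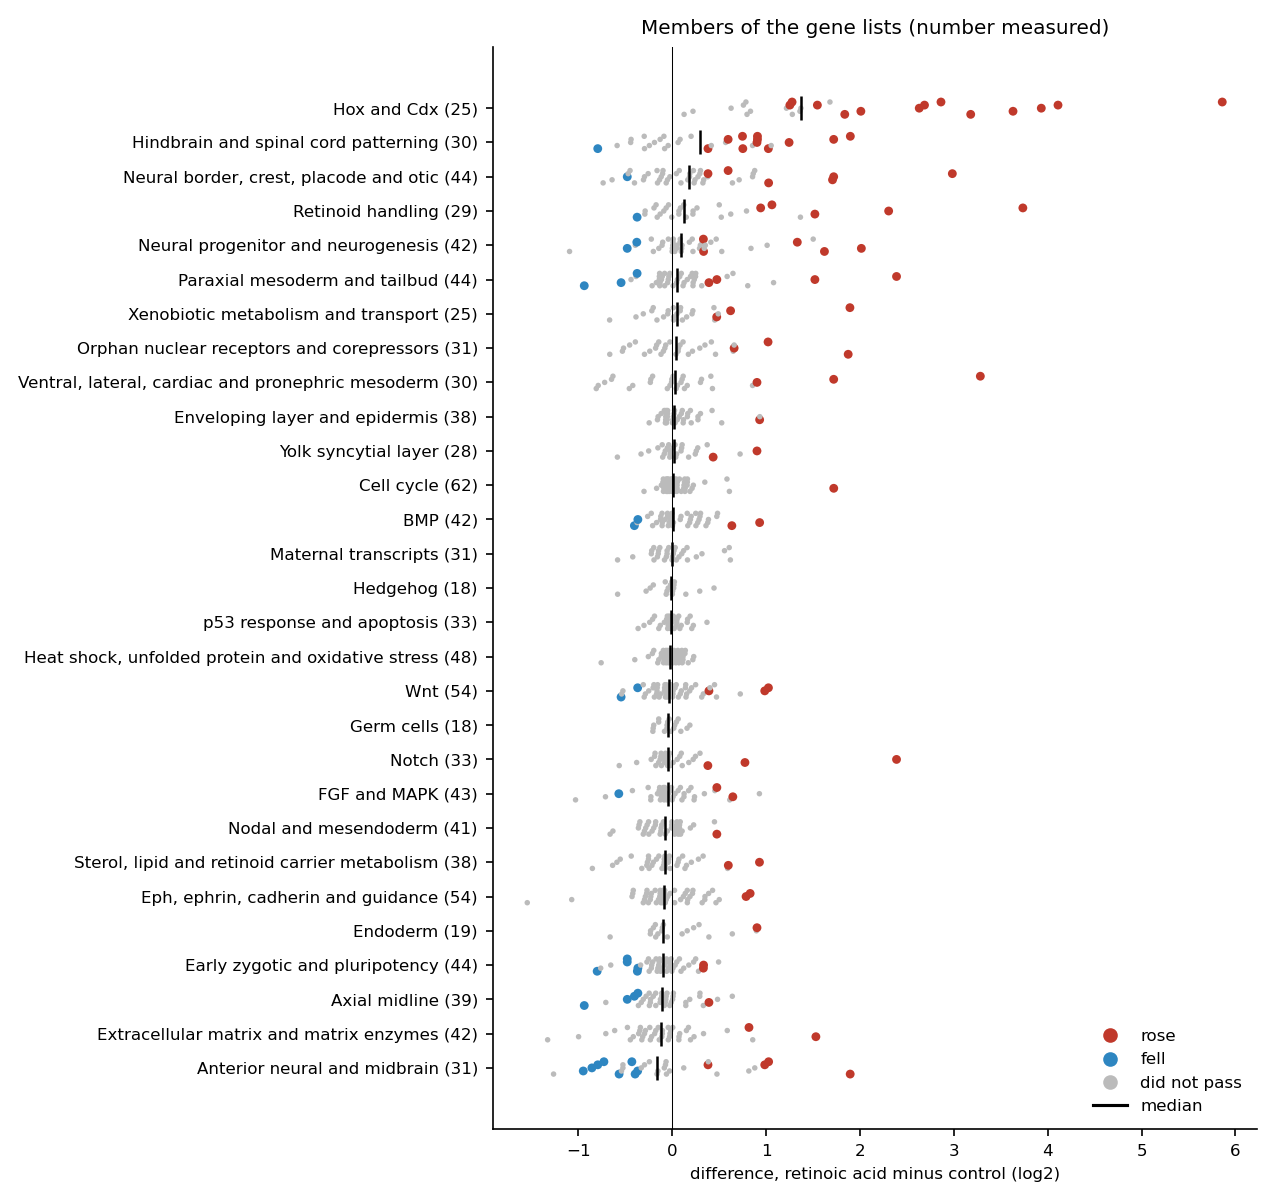
Difference between retinoic acid and control (log2, horizontal axis) for the measured members of 29 gene lists, ordered by median. Red points rose, blue points fell, grey points did not pass the test, the black bar is the median of the list, and the number measured is in brackets. The Hox and Cdx median is 1.37, the hindbrain and spinal cord median 0.29 and the anterior neural median -0.16, and a gene can stand in more than 1 list.

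The largest called fall in the upper 75% of genes, anterior and axial genes included, was that of rasd2a, a Ras-like GTPase. Its level was 5.6, 6.33 and 7.37 (lowest, median and highest) in retinoic acid and 6.95, 7.72 and 8.36 in control. It fell 2.51-fold (SE 0.21, limma adjusted p = 0.00148), and both retinoic acid libraries lay below both controls within each set. sall3b, a spalt zinc finger gene, was at 6.79, 7.35 and 7.87 in retinoic acid and 7.61, 8.09 and 8.8 in control, likewise lower within each set (-0.8, SE 0.14, adjusted p = 0.00412). NPR3, the clearance receptor of natriuretic peptides, was at 6.34, 6.72 and 7.45 in retinoic acid and 7.3, 7.56 and 7.74 in control (-0.79, SE 0.14, adjusted p = 0.00369). AMOTL2, a junction scaffold of the angiomotin family, was at 10.71, 11.14 and 11.27 in retinoic acid and 11.31, 11.62 and 11.87 in control, without overlap (-0.52, SE 0.077, adjusted p = 0.000674). arhgef37, a guanine nucleotide exchange factor gene, was at 7.98, 8.82 and 8.9 in retinoic acid and 8.93, 9.29 and 9.57 in control, also without overlap (-0.6, SE 0.11, adjusted p = 0.00366). Of the genes of low mean level, the synaptic adhesion gene nlgn4xa was at 0.93, 3.34 and 4.5 in retinoic acid and 3.67, 5.47 and 6.24 in control, and lower in retinoic acid within each set (-1.94, SE 0.35, adjusted p = 0.00506).

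The calls of further falls were lost in some of the fits without 1 library. NDST4, an enzyme of heparan sulfate synthesis, was called at -1.54 (SE 0.34, adjusted p = 0.0259; lost in 9 of 16 fits, adjusted p up to 0.0797), and the homeobox gene GSX1, with 4 retinoic acid libraries and 1 control at their lowest value, at -2.12 (SE 0.51, adjusted p = 0.04996; lost in 14 of 16, adjusted p up to 0.152). The prostaglandin synthase gene ptgdsb.1 was at -0.51 (SE 0.11, adjusted p = 0.018; lost in 4 of 16, adjusted p up to 0.0576), tpbg1b, a membrane protein known as a Wnt inhibitor, at -0.52 (SE 0.12, adjusted p = 0.047; lost in 13 of 16, adjusted p up to 0.118), and the nuclease gene dnase1l1 at -0.54 (SE 0.13, adjusted p = 0.0485; lost in 14 of 16, adjusted p up to 0.13). The amino acid transporter gene SLC16A10 (-0.38, SE 0.079, adjusted p = 0.0185) was lost in 2 of 16 (adjusted p up to 0.0537) and PLEKHA5 (-0.39, SE 0.091, adjusted p = 0.0402) in 10 of 16 (adjusted p up to 0.115).

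The 4 title-number sets were compared in turn. Within each set both retinoic acid libraries lay above both controls for 122 of the 152 rises (0.961% of all genes did so in all 4 sets) and below both for 18 of the 34 falls (0.325% of all genes). All sets agreed in sign for 184 of the 186 called genes, against 13.3% of all genes. The called genes were chosen on these same libraries, so the sets were also left out by turn. Of the genes called in the 3 other sets, 119 of 127 had the same sign in the set numbered 1 to 12, 170 of 196 in 13 to 24, 106 of 108 in 25 to 36 and 99 of 99 in 37 to 48. Over all genes 51.6%, 52.1%, 42.8% and 59.1% had the same sign, in that order. The median ratio of the difference in the left-out set to the fitted difference was 0.999, 0.64, 1.03 and 0.871, in the same order. The set numbered 13 to 24 holds retinoic acid replicate 3. The test of a difference in effect between the sets called 0 genes in limma at an adjusted p under 0.05 (1016 at an unadjusted p under 0.05, 6.47% of all genes), with a smallest adjusted p of 0.743.

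The same control libraries serve the comparisons of valproic acid and folic acid with control, so values are given side by side and not as independent evidence. Doses are not given, and sizes cannot be set at matched doses. Valproic acid gave 2904 genes higher (18.5%) and 2788 lower (17.7%), and folic acid 0 called genes in limma (1023 at an unadjusted p under 0.05, 6.51%). Several of the largest rises with retinoic acid were lower than control in valproic acid. HAPLN1 differed by 1.53 in retinoic acid, -2.7 in valproic acid (adjusted p = 0.000251) and -0.084 in folic acid (adjusted p = 0.916). For hephl1a the 3 differences were 2.23, -1.6 (adjusted p = 2.69e-05) and -0.24 (adjusted p = 0.788), and for oc90 2.98, -1.45 (adjusted p = 0.00351) and -0.19 (adjusted p = 0.843). The neuronal genes ELAVL3 and INSM1 were higher than control in valproic acid too, at 1.1 (adjusted p = 0.011) and 0.89 (adjusted p = 0.00186), while neurog1 was lower, at -1.11 (adjusted p = 0.0402). TSHZ3 was at 0.11 (adjusted p = 0.563).

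Among the falls, the anterior genes six7, FEZF2 and PAX6 were lower in valproic acid as well, at -0.79 (adjusted p = 0.0126), -1.25 (adjusted p = 0.00571) and -1.63 (adjusted p = 0.000184). SOX2 was at 0.03 (adjusted p = 0.738), and sall3b, NPR3 and ptgdsb.1 were higher, at 0.79 (adjusted p = 0.002), 0.7 (adjusted p = 0.00029) and 1.09 (adjusted p = 1.79e-06). When the 8 folic acid libraries took the place of the 8 controls, an alternative added after the data had been seen, retinoic acid gave 173 rises and 57 falls. Of the 186 genes 146 were called again, and all 186 had the same direction. The 186 were chosen with the same 8 retinoic acid libraries, so this agreement is not independent evidence.

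**Figure D5:**
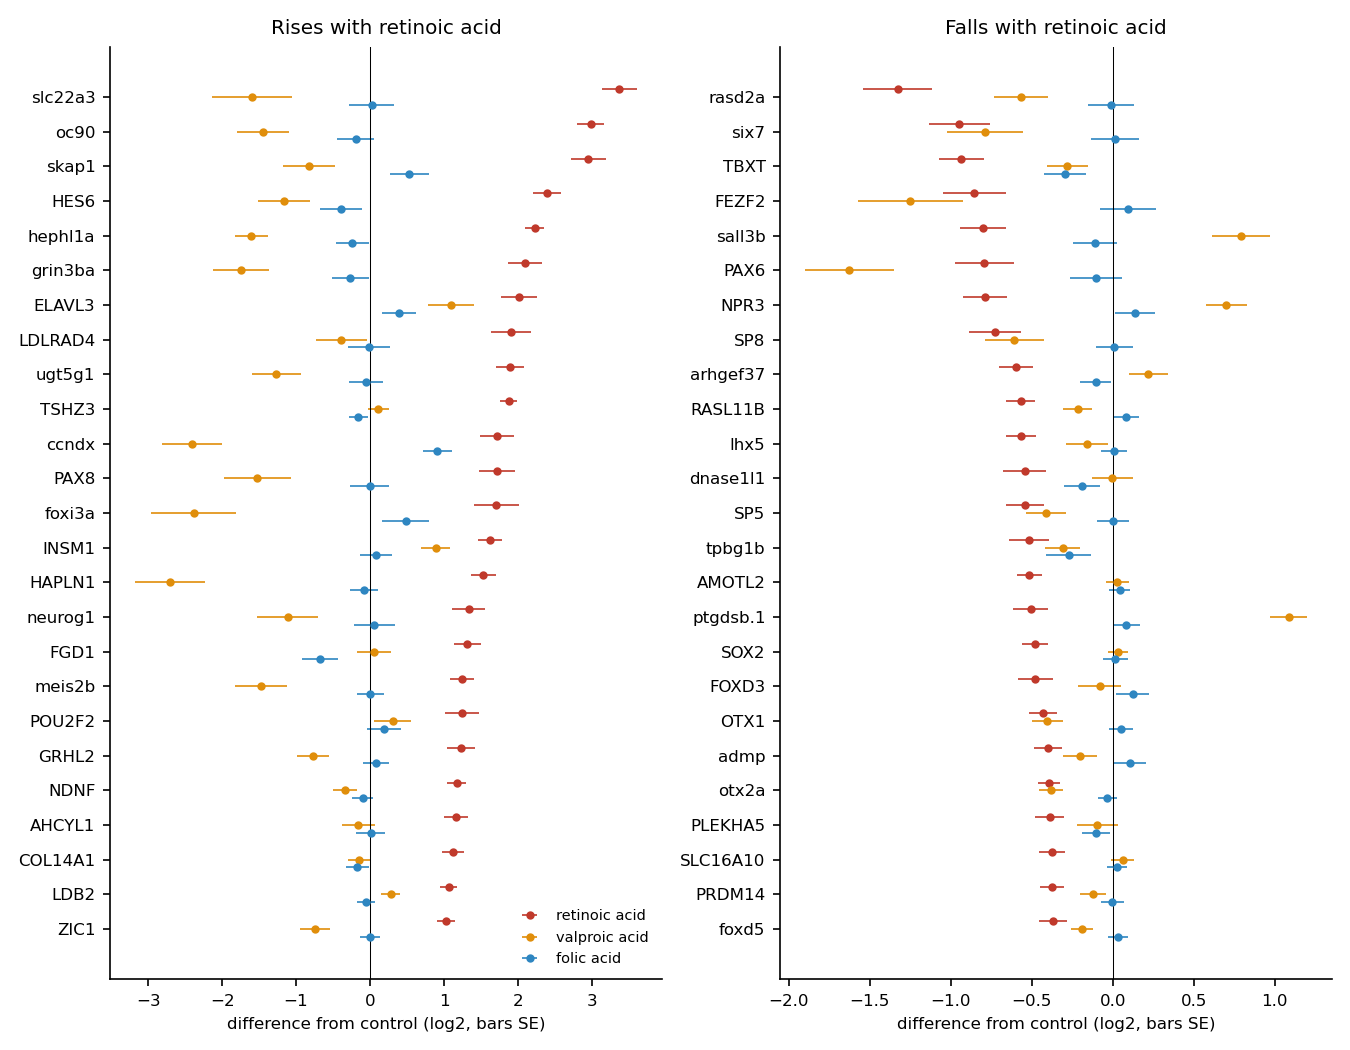
Difference from control (log2, horizontal axis, bars SE) in retinoic acid (red), valproic acid (orange) and folic acid (blue) for the 25 largest called rises and 25 largest called falls with retinoic acid, clone-named genes left out, outside the Hox, Cdx and retinoid handling lists in the upper 75% of genes by mean level. The 3 comparisons share the same 8 control libraries. Folic acid values lie between -0.68 (FGD1) and 0.91 (ccndx), with no gene called, and valproic acid values lie on either side of 0.

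Gene order was read from RefSeq's annotation of the assembly GRCz12tu, which is not the build GRCz11 of the counts, so neighbours only are given. Measured genes with a shared or unmatched name could not be placed and were skipped. Of 127 called genes that could be placed, 12 had a called gene as the nearest placed gene on either side (9.45%). Of all 11040 placed genes 249 did (2.26%). Most of these are neighbouring Hox genes. EXOC6, a subunit of the exocyst complex that tethers secretory vesicles, lies beside CYP26A1. EXOC6 was at 7.47, 7.77 and 8.06 in retinoic acid and 6.46, 6.998 and 7.29 in control, without overlap, and rose 1.73-fold (SE 0.12, limma adjusted p = 0.000599). The next measured gene beyond it, adam8b, was at 0.85 (adjusted p = 0.441). The gene skap1 lies at the end of the hoxbb cluster, next to hoxb5b and hoxb6b. Here hoxb6b was called at 3.18 (SE 0.68, adjusted p = 0.0223) and hoxb1b at 1.55 (SE 0.13, adjusted p = 5.45e-07), and psme3, on the other side of skap1, was at 0.05 (adjusted p = 0.877). The gene hoxb5b was not placed, because HOXB5 is a shared name. Both genes of that name were called, ENSDARG00000054030 at 4.11 (adjusted p = 4.39e-06) and ENSDARG00000013057 at 2.63 (adjusted p = 0.00151). EXOC6 was picked for this comparison after its value had been seen.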

How the data were processed

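Polyadenylated RNA of whole embryos was extracted with Qiazol and made into strand-specific libraries (NEBNext Ultra II Directional), per the labels' protocols. The deposited table holds normalized log2 expression, made by the authors, for 15710 Ensembl genes, with 1 column per library and values from 0 to 19.4022. Per the submitters' processing notes, HTSeq 0.11.0, limma and the build GRCz11 were used. Aligner, annotation, filter and normalization were not given in the sources used here, and depth in reads is unknown. The libraries share nearly the same distribution of values, so a change in total RNA would not be seen, and differences of genes near 0 depend on the scaling.

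The test was limma 3.58.1 in R 4.3.3 on the 16 libraries, with group and title-number set as terms, an intensity trend and Benjamini-Hochberg adjustment over all 15710 genes. Calls were made at an adjusted p under 0.05, and no filter on low values was applied. SE and intervals come from the same fit, which was tested on simulated data. The block is part of this fit because each set holds 2 libraries of each group, and sets account for 68.3% of the variance of the first principal component. Replicate numbers were given in accession order and pair no libraries. Without replicate block the fit gave 96 rises and 16 falls.

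Names were found for 15016 of 15710 identifiers, and 1503 identifiers share a name, so the identifier is given for those. Names in capitals are human-style symbols that may stand for either zebrafish paralog, and reads shared between paralogs leave their values uncertain. Genes were named by a rule, whose first part left out clone and accession names and the Hox, Cdx and retinoid lists. From the upper 75% by mean this part took the 25 largest called rises and 25 largest called falls. Below that mean it took the 10 largest called rises and 5 largest called falls. Up to 4 called members of each of 29 lists were added, and a few base genes such as CYP26A1 and tbxta. Some genes that the rule names are left out of the text. Of 1231 list names 317 were not matched. The lists, the rule and the tests were chosen with earlier results of these data known. No genome or promoter sequence was used, so no coordinates are given.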

Additional observations from a re-analysis of the deposited data

Results flagged for a closer look

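Among 202 groups of 8 libraries tested for a library far from the rest (101 named genes in 2 groups), 10 had one by Dixon's criterion, and chance alone gives about 1 in 20. In retinoic acid replicate 3 the lowest value of the group stood apart for arhgef37 (7.98), ldlrb (9.06), TBXT (6.79), AMOTL2 (10.7) and tpbg1b (9.56). Without that library the difference was -0.52 for arhgef37 (adjusted p = 0.000797), 0.68 for ldlrb (adjusted p = 0.000357), -0.83 for TBXT (adjusted p = 0.000164), -0.46 for AMOTL2 (adjusted p = 0.00014) and -0.4 for tpbg1b (adjusted p = 0.0114), all by limma. The other 5 were each a single low value, of dnase1l1 in retinoic acid replicate 4 (6.27), nlgn4xa in retinoic acid replicate 5 (0.934), ZFHX3 in retinoic acid replicate 7 (4.5), PCDH18 (ENSDARG00000089805) in control replicate 1 (8.39) and TSHZ3 in control replicate 8 (6.8).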

How the results depend on the processing

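All 186 called genes kept their direction in each of the 29 alternatives that tested them. The counts moved more than the directions. Without replicate block the 16 libraries gave 96 rises and 16 falls, 1 of them at least 2-fold, and all 32 libraries gave 93 rises, 47 of them at least 2-fold, and 22 falls. All 32 libraries with the block gave 52 falls, 10 of them at least 2-fold. Averaging the 2 libraries of each group and set gave 92 rises and 7 falls, 2 of them at least 2-fold. Without the intensity trend there were 20 falls, 7 of them at least 2-fold. Genes with a mean of at least 5, which are fewer genes, gave 51 rises and 1 fall of at least 2-fold. With folic acid libraries in place of control, chosen after seeing the data, there were 57 falls, 11 of them at least 2-fold. The cause of these shifts was not tested.

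Leaving out 1 library or 1 title-number set gave 89 to 195 rises, 10 to 53 falls, 54 to 84 rises of at least 2-fold and 2 to 8 falls of at least 2-fold. The 53 falls came without retinoic acid replicate 3. Fewer than 23 falls were found without retinoic acid replicate 2, 5, 6, 7 or 8 or control replicate 3, 5, 7 or 8. Of the 186 calls 124 held in all 16 fits without 1 library (109 rises and 15 falls). In every one of the 29 alternatives that tested them, 59 rises and 3 falls held. The alternative limited to a mean of at least 5 tested only 157 of the 186. Robust empirical Bayes and median centring moved neither count by over 1.5 times. The limma test of the effect by set, with 0 calls and 1016 genes at an unadjusted p under 0.05, stayed at 0 calls without the trend and at a mean of at least 5. Precision was lowest at low levels: in the lower 25% of genes by mean 39.6% had a 95% interval within 2-fold, against 97.4% in the upper 75%.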

Other observations

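Some genes that did not pass with all 16 libraries passed when retinoic acid replicate 3 was left out. Those given here were chosen after their values were seen, and include regulators of chromatin, transcription and growth. PHF21A (ENSDARG00000006878), a histone-binding protein, was at 0.68 (limma adjusted p = 0.000249), KDM5B (ENSDARG00000003098), a histone demethylase, at 0.35 (adjusted p = 0.00114), DNMT3B, a DNA methyltransferase, at 0.42 (adjusted p = 0.00616), and GREB1L, known in mammals from kidney and inner ear development, at 0.5 (adjusted p = 0.000749). The nuclear receptor gene ESRRA was at 0.84 (adjusted p = 0.000851), and nrip1b, a co-repressor of nuclear receptors, at 0.56 (adjusted p = 0.0151). YAP1, the Hippo pathway co-activator, was at 0.28 (adjusted p = 0.0137). None of these rises passed in limma when control replicate 1 was left out instead, with adjusted p from 0.135 for PHF21A to 0.642 for YAP1. Lower in retinoic acid without replicate 3 were the Nodal inhibitor gene lft1 at -0.46 (adjusted p = 0.0188) and the ventral gene vent at -0.29 (adjusted p = 0.0287). The Hairy-related gene HES3 was at -0.58 (adjusted p = 0.0024) and DBX1 (ENSDARG00000086393), a homeobox gene of the neural tube, at -0.61 (adjusted p = 0.041). Without control replicate 1, vent did not pass (adjusted p = 0.686) and DBX1 was called.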
